A study of Mus musculus with 10 samples.

Results

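The genes described here encode the proteins of the cytoplasmic ribosome. They were chosen by mouse gene symbol (Rpl, Rps or Rplp followed by a number and, where present, the letter a, l or x, plus Rpsa) with a mean raw count of at least 50 over the 4 RNA-seq libraries. The names matched 83 of the 52636 identifiers in the count tables, and 80 of these reached the count, 48 of the large subunit and 32 of the small subunit. The mean count over all libraries chose the members, and it does not use the difference between groups. The nearest identifier below the limit was Rpl3l, a form of Rpl3 known from heart and skeletal muscle, with a mean count of 43.25 (WT libraries 35 and 15, CBE-KO libraries 64 and 59). Rpl24 (mean 9.25) and Rpl32l (mean 8) also stayed outside, and the lowest identifier inside was Rpl29 with a mean of 119.5. All 80 members passed the filter on low counts and were tested.

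The libraries came from E14, an established mouse embryonic stem cell line. Unedited cells (WT, 2 libraries) were compared with cells from which a site bound by CTCF, a protein that organises chromatin, had been deleted (CBE-KO, 2 libraries). Both groups had been moved to medium without LIF and without the MEK and GSK3 inhibitors and given 2 µM retinoic acid, by the label, for 24 h. The series describes its replicates as biological. How many edited clones the CBE-KO libraries represent is not given in the sources used here.

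A cytoplasmic ribosome joins a small subunit, which reads the message, to a large subunit, which forms the peptide bond. Its proteins are made in matched amounts, and their messages are among the most abundant of growing cells. Most of these messages start with a cytosine and a run of pyrimidines, the 5′ terminal oligopyrimidine (TOP) tract, through which mTORC1 and LARP1 control their translation. Myc proteins are known to raise the transcription of ribosomal protein genes and of the factors that assemble ribosomes in the nucleolus.

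Library totals were 14108038 to 15632960 counts, and members had from 78 to 52855 counts in a library. Replicates of a group varied beyond counting error, with a chi-square per degree of freedom of 3.40 (WT) and 2.70 (CBE-KO) over all genes. Over the members it was 53.3 (WT) and 26.8 (CBE-KO). This measure grows with the number of counts, so it cannot show that abundant members vary more than other genes. Whether they vary more than other genes of like abundance was not tested. For Rpl29, with the fewest counts, counting error was not small. The 8 stem cell markers summed to 7491 to 8077 CPM in each library, with 5 lower and 2 higher in CBE-KO. CPM are counts scaled to a common library size with TMM factors, the trimmed mean of M-values. Single markers moved more than the sums, with a median log2 fold change of -0.34 (lowest -1.67, highest 0.28). Utf1 had -1.75 to -1.61 and Tdgf1 -1.24 to -1.17 when a library was left out. The 8 fibroblast feeder markers summed to 12.6 and 13.9 CPM in WT and 17.3 and 19.2 in CBE-KO, with Dcn, Postn and Lum at 0 counts in each library. The 5 Y-linked genes checked together had 19 and 12 counts in WT libraries against 2589 and 2182 in CBE-KO libraries, although the labels name the same line for both groups. The part of these marker and Y-linked differences in the results was not tested. In bulk RNA, fewer cells of a type and less RNA per cell cannot be told apart.

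WT replicate 1 stood apart from WT replicate 2 in these genes. On the TMM scale, 70 of the 80 members were higher in replicate 1, by a median log2 difference of 0.11. The median over all tested genes was -0.0019, but the scaling itself holds that median near 0. Other abundant genes were not compared in this way. The CBE-KO pair differed the other way, with 10 of 80 members higher in replicate 1 and a median log2 difference of -0.06.

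Of all counts, ribosomal protein genes took 8.88% and 8.35% in WT and 8.22% and 8.48% in CBE-KO. The WT replicate 2 share lay between the CBE-KO shares, so the groups overlapped on library totals. After TMM scaling, which gives the WT libraries factors of 0.959 and 0.970 and the CBE-KO libraries 1.04 and 1.03, the same sums were 9.25% and 8.60% in WT and 7.90% and 8.21% in CBE-KO. On that scale both CBE-KO libraries were below both WT libraries. The group means were 8.93 ± 0.458% and 8.06 ± 0.216% with TMM and 8.61 ± 0.373% and 8.35 ± 0.185% on library totals (SD, n = 2 each).

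**Figure D1:**
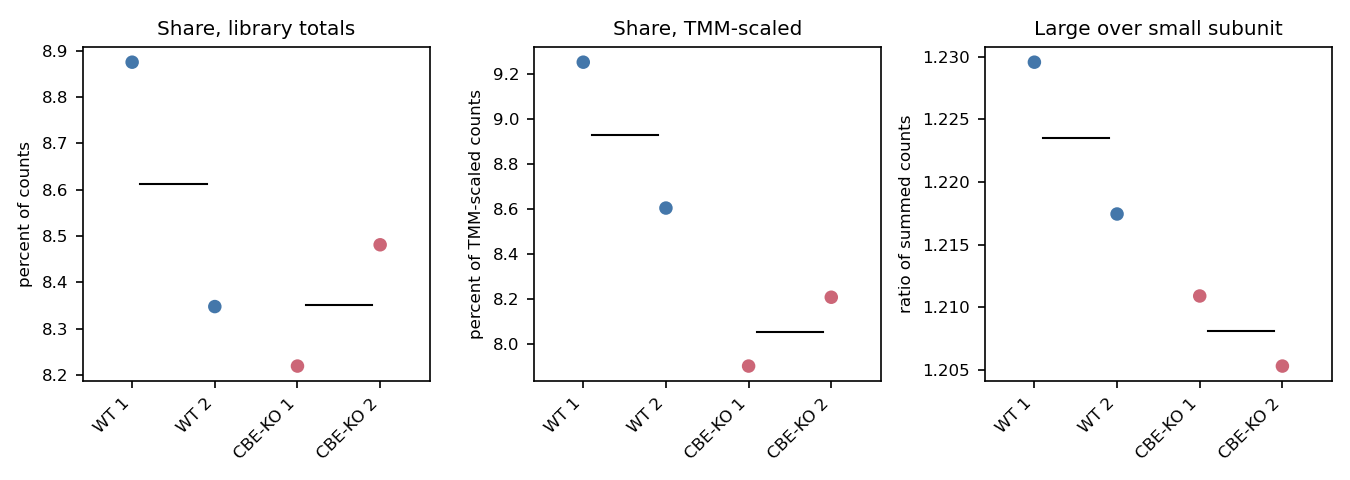
Share of counts in the 80 ribosomal protein genes on library totals (left, percent) and after TMM scaling (middle, percent), and the ratio of summed large to summed small subunit counts (right), with a point per library, lines at group means and vertical axes that do not start at 0. On library totals the WT replicate 2 point (8.35%) lies between the CBE-KO points (8.22% and 8.48%), and with TMM both CBE-KO points lie below both WT points.

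Gene by gene, 49 of the 80 members were lower in CBE-KO and 3 were higher at an adjusted p under 0.05 in edgeR, with 28 not past the threshold. Among all 16005 tested genes, 21.5% were lower and 21.6% higher by the same rule, 43.1% in either direction. The falls were small. The median log2 fold change over the members was -0.15, a 10.0% lower level, with the middle of the members between -0.23 and -0.10 (quartiles), beside a median of 0.0067 over all tested genes. The difference between groups was larger than both replicate differences for 45 of the 80 members with TMM and for 30 on library totals. The share of all tested genes for which this held was not counted.

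High abundance went with lower values in CBE-KO in these libraries whether or not a gene was ribosomal. Of the 410 other genes with a mean count of at least 5000, 57.8% were lower and 12% higher, with a median log2 fold change of -0.16. Of the 68 members with such a count, 42 were lower and 1 higher, with a median of -0.14. With TMM the members' share of falls (61.8%) thus lay near that of other abundant genes, and both were above the 21.5% over all genes. On library totals 18 of the 68 members (26.5%) and 170 of the 410 other genes (41.5%) were lower, and on that scale the members' share was below that of the other abundant genes.

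**Figure D2:**
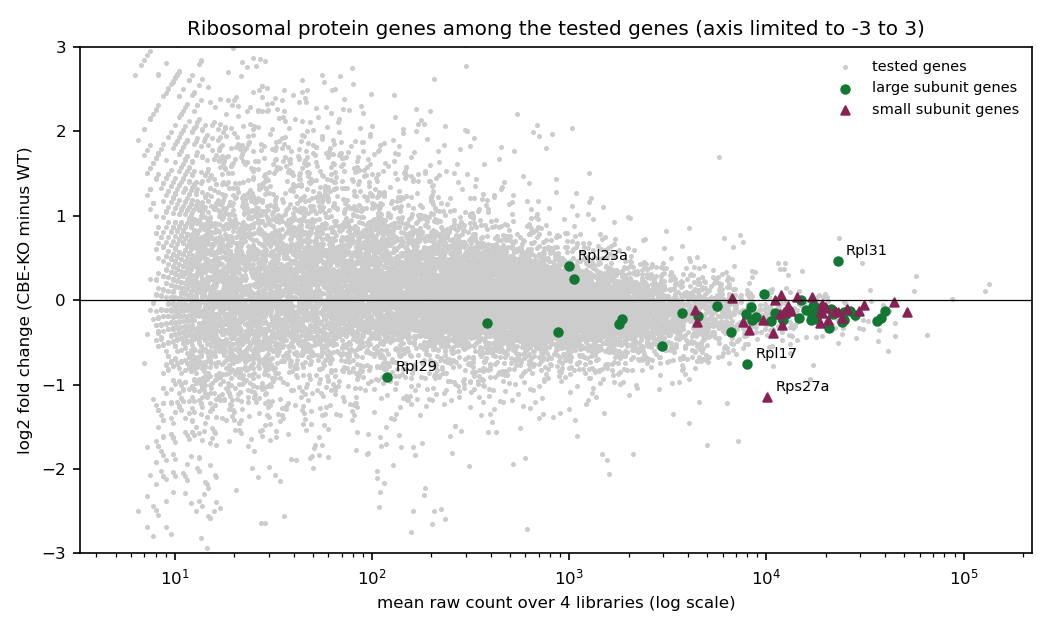
Log2 fold change (CBE-KO minus WT, TMM scaling) against the mean raw count over 4 libraries (log axis) for all tested genes in grey, with large subunit genes as circles and small subunit genes as triangles. Most members sit in a narrow band just under 0 at the abundant end, with Rps27a, Rpl29 and Rpl17 below it and Rpl31 and Rpl23a above it.

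The number of calls depended on how the libraries were scaled. With library totals alone, 23 members were lower and 7 higher, against 14.7% and 29.8% of all genes, and the median over all tested genes moved from 0.0067 to 0.11. Relative to the median of all genes, the members' median was -0.16 under both scalings. A library factor shifts every gene alike, so this value could hardly change and is no check on the calls. Upper-quartile scaling gave 36 lower and 3 higher, median-of-ratios scaling 56 lower and 3 higher, and DESeq2 43 lower and 2 higher, beside 18.9% and 24%, 22.3% and 20.8%, and 15.8% and 12.8% of all genes. Leaving out CBE-KO replicate 1 reduced the calls to 34, leaving out WT replicate 2 gave 70, and without WT replicate 1 the members called higher rose from 3 to 7. Of the 52 calls, 26 were made with the same sign under each of the 6 scalings, 23 lower and 3 higher, and 23 were made with the same sign in every fit run. The latter were 21 lower and 2 higher.

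Both CBE-KO values lay below both WT values for 55 members on the TMM scale, beside 33.9% of all tested genes, and for 30 members on library totals, beside 24.8%. They lay above for 2 members with TMM (36.5% of all genes) and for 9 on library totals (46.7%). No member called with TMM scaling changed sign under another scaling. The smallest called change, that of Rpl10a, was -0.12 with TMM and -0.018 on library totals. The shift between scalings was smaller than each called change, so this was no separate check. Rps12, looked up after values were seen, changed sign without WT replicate 1. With library totals 13 of the 80 members, none of them called, changed sign.

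**Figure D3:**
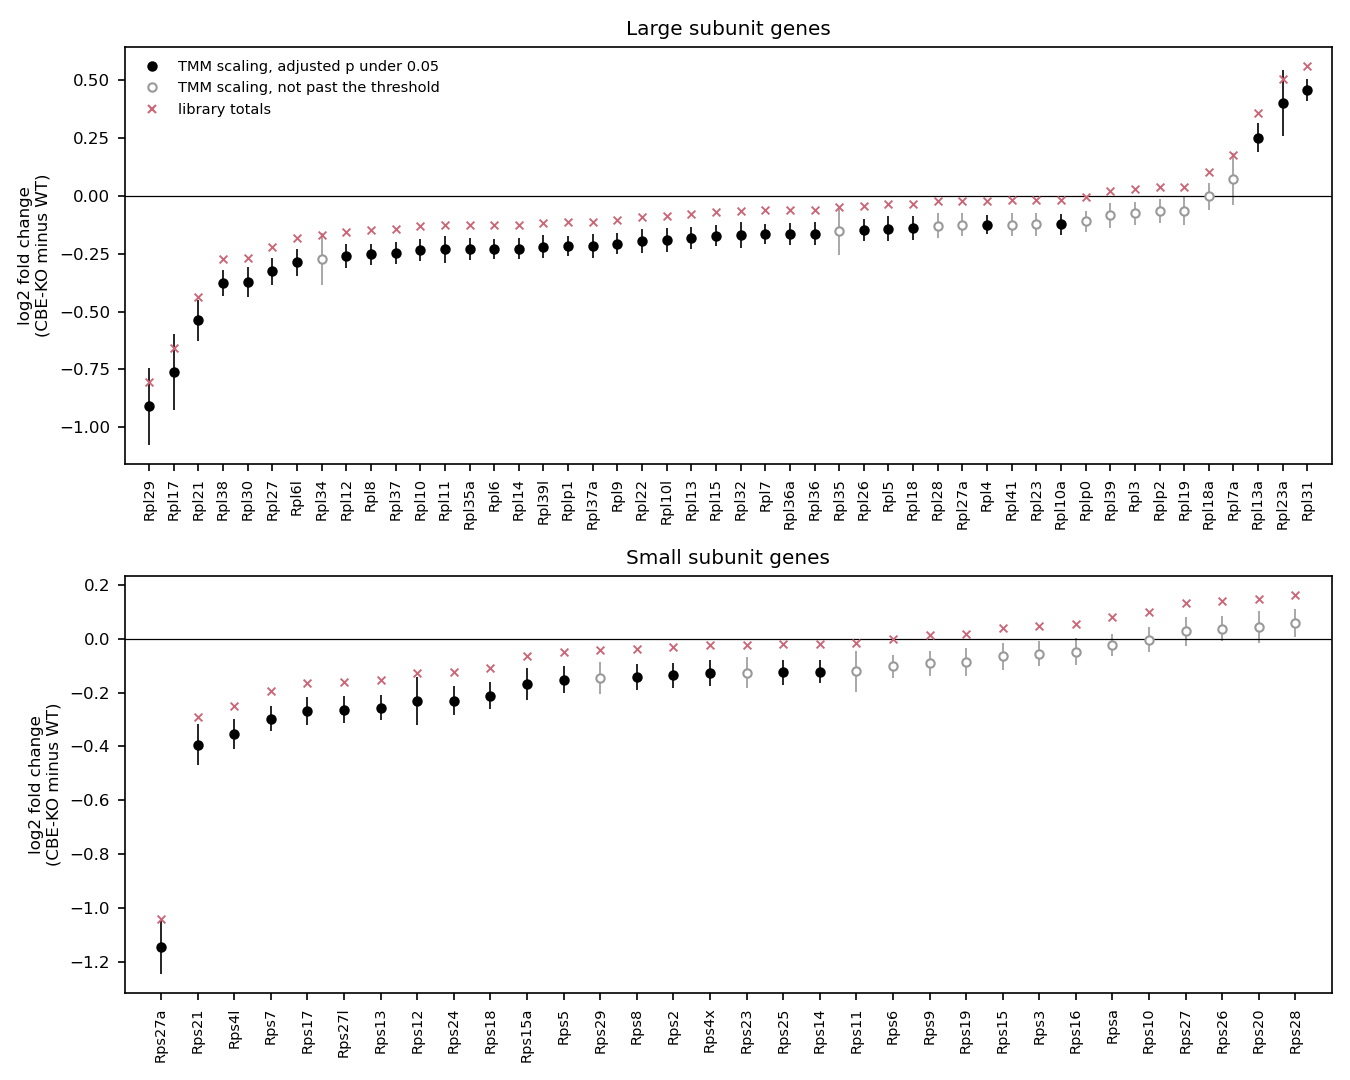
Log2 fold change (CBE-KO minus WT) of each large (upper) and small (lower) subunit gene with TMM scaling (circles, bars are the standard error, filled where adjusted p is under 0.05) and on library totals (crosses). Most filled circles are between -0.4 and -0.1, every cross lies above its circle, and 13 genes that were not called change sign on library totals.

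The subunits were compared with each other, since a ratio between them does not depend on a library-wide factor. Of the 48 large subunit genes, 32 were lower and 3 higher, with a median log2 fold change of -0.17. Of the 32 small subunit genes, 17 were lower and 0 higher, with a median of -0.13. Of all tested genes, 21.5% were lower and 21.6% higher. Upper-quartile scaling left 27 lower in the large (56.25%) and 9 in the small subunit (28.1%), beside 18.9% of all genes. The medians differed by -0.04, with a spread (SD) between replicates of 0.023, and by -0.07 to -0.04 in the fits that left out a library. The medians themselves had a larger spread between replicates, 0.089 (large) and 0.067 (small). On library totals the medians were -0.07 (large) and -0.02 (small). The calls were 15 lower and 3 higher in the large subunit and 8 lower and 4 higher in the small. These falls were 31.25% and 25% of the subunits, beside 14.7% of all genes, of which 29.8% were higher. The ratio of summed large to summed small subunit counts was 1.23 and 1.22 in WT and 1.21 in both CBE-KO libraries, below both WT values. The means were 1.224 ± 0.00856 in WT and 1.208 ± 0.00395 in CBE-KO (SD, n = 2 each). This difference was not tested, because the members were chosen with results known.

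Rps27a (ENSMUSG00000020460; mm10, chromosome 11, 29545842 to 29548040) had the largest change of all members. It encodes ubiquitin fused to a small subunit protein and so supplies both. Its levels were 943 and 953 CPM in WT and 507 and 350 CPM in CBE-KO. Both CBE-KO libraries were far below WT, and they also differed from each other. edgeR gave -1.14 ± 0.10 on the log2 scale (SE, adjusted p = 8.72e-08), and the value stayed between -1.44 and -0.90 when a library was left out. RefSeq places Rps27a in overlap with Clhc1, Rpl31 with Tbc1d8, Rps4l with Tmtc1 and Rpl23a with Tlcd1, and 17 of the 80 members overlap a gene that is no small RNA. Strand use in counting is not given in the sources used here.

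Among the large subunit genes the largest falls were those of Rpl29, Rpl17 and Rpl21. Rpl29, with the fewest counts of any member (157 and 146 for WT, 97 and 78 for CBE-KO), had 10.7 and 10.6 CPM in WT against 5.97 and 5.35 CPM in CBE-KO. Replicates lay close together and the groups far apart (edgeR log2 fold change -0.91 ± 0.17 SE, adjusted p = 0.000245). How reads that also match copies of Rpl29 were counted is not given in the sources used here. Rpl17, whose protein lines the peptide exit tunnel, had 590 and 775 CPM in WT and 517 and 287 CPM in CBE-KO. Here the replicates of each group lay far apart. In edgeR it fell by 0.76 ± 0.16 on the log2 scale (SE, adjusted p = 0.00109). In DESeq2 it missed the threshold (adjusted p = 0.211), and the edgeR value was -0.40 without CBE-KO replicate 2 and -1.25 without CBE-KO replicate 1. Rpl21 had 203 and 272 CPM in WT and 167 and 160 CPM in CBE-KO (edgeR log2 fold change -0.54 ± 0.09 SE, adjusted p = 8.54e-05). Its value was -0.32 without WT replicate 2 and -0.74 without WT replicate 1, past the threshold in both.

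Rpl38, Rpl30 and Rps21 had the next largest falls. Rpl38 is the gene altered in the Tail-short mouse and is known for a part in the translation of Hox messages. It had 530 and 490 CPM in WT and 371 and 415 CPM in CBE-KO (edgeR log2 fold change -0.38 ± 0.06 SE, adjusted p = 3.62e-05). Rpl30 had 65.3 and 68.4 CPM in WT and 51.1 and 52.1 CPM in CBE-KO (-0.37 ± 0.06). Rps21 had 931 and 722 CPM in WT and 627 and 631 CPM in CBE-KO. WT replicate 1 stood well above replicate 2. The edgeR log2 fold change of -0.39 ± 0.08 (SE, adjusted p = 0.000437) was -0.20 without WT replicate 1, and in DESeq2 the gene missed the threshold (adjusted p = 0.0847).

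The 3 members that were higher in CBE-KO all belong to the large subunit. Rpl31 (ENSMUSG00000073702; mm10, chromosome 1, 39367851 to 39371911), a protein at the rim of the exit tunnel, had 1367 and 1230 CPM in WT and 1775 and 1795 CPM in CBE-KO. Both CBE-KO libraries were above both WT libraries by more than the replicates differed. edgeR gave 0.46 ± 0.05 on the log2 scale (SE, adjusted p = 9.80e-07), and 0.38 to 0.54 when a library was left out. Rpl13a, known also for a role in silencing of inflammatory messages, had 68.1 and 61.5 CPM in WT and 79.2 and 75.3 CPM in CBE-KO (edgeR log2 fold change 0.25 ± 0.06 SE, adjusted p = 0.00422). Rpl23a, whose protein sits where nascent chains leave the ribosome, had 72.2 and 42.5 CPM in WT and 82.2 and 69.6 CPM in CBE-KO. For Rpl23a the groups overlapped on the TMM scale. edgeR gave 0.40 ± 0.14 on the log2 scale (SE, adjusted p = 0.0321), but 0.070 without WT replicate 2, and DESeq2 made no call (adjusted p = 0.521).

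The start regions of a few members are printed to show the tract that most of them share. RefSeq gave a promoter for 58 of the 80 members, on the GRCm38.p6 assembly, of which mm10 is another name. Each line below runs from 40 bases before to 20 bases after an annotated transcription start, on the gene's own strand, with capitals for the longest run of a C and at least 5 more C or T that starts within 20 bases of the annotated start. Rps21, Rpl38, Rpl27 and Rps7 had the largest falls among called members with a promoter entry that could be shown, Rpl31 and Rpl13a had the largest rises, and Rps6 and Rpl28 were added, after their values were seen, as clear tracts in genes that were not called. Rps21 has 2 annotated starts, of which the window shows 1.
Rps21, chr2:180257339-180257398, plus strand: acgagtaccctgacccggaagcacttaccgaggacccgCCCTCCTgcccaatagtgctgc
Rpl38, chr11:114668540-114668599, plus strand: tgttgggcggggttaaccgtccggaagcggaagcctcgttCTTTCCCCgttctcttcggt
Rpl27, chr11:101442205-101442264, plus strand: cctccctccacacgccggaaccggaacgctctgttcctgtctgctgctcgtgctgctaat
Rps7, chr12:28635934-28635993, minus strand: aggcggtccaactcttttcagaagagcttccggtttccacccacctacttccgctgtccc
Rpl31, chr1:39367811-39367870, plus strand: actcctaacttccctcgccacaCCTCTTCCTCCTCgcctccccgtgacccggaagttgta
Rpl13a, chr7:45128726-45128785, minus strand: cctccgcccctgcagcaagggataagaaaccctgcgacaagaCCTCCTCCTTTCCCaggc
Rps6, chr4:86857348-86857407, minus strand: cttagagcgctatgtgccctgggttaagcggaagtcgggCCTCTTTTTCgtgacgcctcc
Rpl28, chr7:4792925-4792984, plus strand: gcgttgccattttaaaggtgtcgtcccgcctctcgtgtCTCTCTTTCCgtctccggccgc

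The annotated start lies in the tract for Rps21, Rpl38, Rps6 and Rpl28 and just before it for Rpl13a. For Rpl31 it lies after the marked run, in a shorter run of the same kind that is not in capitals. Rpl27 and Rps7 have no such run that starts within 20 bases of the annotated start, although their lines hold runs farther upstream. Rpl27 and Rps7, picked for the display after their values were seen, stood at 1671 and 1466 CPM (Rpl27) and 911 and 878 CPM (Rps7) in the WT libraries. In the CBE-KO libraries they stood at 1194 and 1310 CPM and at 715 and 741 CPM, edgeR log2 fold changes of -0.33 and -0.30 with no overlap of groups. Such a run was found on the sense strand for 41 of the 58 members (70.7%) and for 36.0% of the 27025 genes with a promoter. It was found for 22 of 33 members that fell (66.7%) and for 19 of the 25 others (76%). The Ets-type word CCGGAAG, searched on both strands of the 300 bases, was in 43.1% of the members' promoters and in 9.93% of all promoters. It was in 13 of 33 members that fell and in 12 of the 25 others. The E-box CACGTG, a word that Myc proteins bind, was in 6 of 58 (10.3%) beside 8.09% of all, with 1 of 33 among members that fell and 5 of 25 among the others. TATAAA was in 10.3% beside 15.7%. These shares describe letters in a window and were not tested.

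The stalk proteins form the arm of the large subunit that recruits elongation factors. Rplp1 had 2843 and 2722 CPM in WT and 2327 and 2462 CPM in CBE-KO (edgeR log2 fold change -0.22 ± 0.04 SE, adjusted p = 0.000690). Its partners did not pass. Rplp0 had a log2 fold change of -0.11 (edgeR adjusted p = 0.0683), and it was past the threshold with median-of-ratios scaling and without WT replicate 2. Rplp2 had -0.06 with TMM and 0.04 on library totals, but passed without WT replicate 2 (-0.14, adjusted p = 0.00563). Rpsa, a small subunit protein also known as the laminin receptor, had 3048 and 2985 CPM in WT and 2922 and 3014 CPM in CBE-KO, with overlapping groups. Its log2 fold change of -0.023 changed sign to 0.08 on library totals.

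Rpl5 and Rpl11 form a particle with 5S ribosomal RNA that can bind Mdm2, the inhibitor of p53. Rpl11 had 1325 and 1122 CPM in WT and 1020 and 1065 CPM in CBE-KO (edgeR log2 fold change -0.23 ± 0.06 SE, adjusted p = 0.00475). Rpl5 had 1647 and 1442 CPM in WT and 1385 and 1417 CPM in CBE-KO (edgeR log2 fold change -0.14 ± 0.05 SE, adjusted p = 0.0421). For both genes WT replicate 2 lay close to the CBE-KO libraries, and neither was called by DESeq2 (adjusted p = 0.143 for Rpl11 and 0.268 for Rpl5), on library totals or without WT replicate 1. Rpl5 also missed the threshold with upper-quartile scaling and without either CBE-KO library. Rps6, the substrate of S6 kinase, and Rps19, the gene most often altered in Diamond-Blackfan anaemia, were not past the threshold. Rps6 had 1784 and 1816 CPM in WT and 1645 and 1707 CPM in CBE-KO (-0.10), and its value was 0.00083 on library totals. Rps6 passed in DESeq2 (adjusted p = 0.0390), with median-of-ratios scaling (0.0406) and without WT replicate 1 (0.0196). Rps19 had 1449 and 1305 CPM in WT and 1260 and 1336 CPM in CBE-KO, with overlapping groups, a value of -0.09 with TMM and 0.019 on library totals. Rps19 passed without WT replicate 2 (-0.16, adjusted p = 0.000698).

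The members with the most reads were Rps2, Rpsa, Rpl4 and Rplp1, an order of raw counts that also reflects message length. Rps2 had 3511 and 3822 CPM in WT and 3251 and 3425 CPM in CBE-KO (log2 fold change -0.14, edgeR adjusted p = 0.0263). Rpl4 had 2884 and 2735 CPM in WT and 2576 and 2581 CPM in CBE-KO (-0.12, edgeR adjusted p = 0.0261). Neither passed with upper-quartile scaling, on library totals or without CBE-KO replicate 1, Rps2 not without WT replicate 2, and Rpl4 not without WT replicate 1 or CBE-KO replicate 2. Both passed in DESeq2 (adjusted p = 0.0179 for Rps2 and 0.0143 for Rpl4).

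Some members are copies of other members. Rps4l, a copy of the X-linked Rps4x, had 659 and 583 CPM in WT and 471 and 502 CPM in CBE-KO (edgeR log2 fold change -0.35 ± 0.06 SE, adjusted p = 6.63e-05), beside -0.13 for Rps4x (edgeR adjusted p = 0.0454). The call of Rps4x ended with upper-quartile scaling (adjusted p = 0.124), on library totals (0.728), and without WT replicate 1 (0.278), CBE-KO replicate 1 (0.339) or CBE-KO replicate 2 (0.0606). Of the counts of this pair, Rps4l took 32.1% and 31.4% in WT and 28.3% and 28.6% in CBE-KO. Rps27l, a target of p53, had a log2 fold change of -0.26 (edgeR adjusted p = 0.000358), beside 0.029 for Rps27, which was called higher on library totals (0.13). Its share of the pair was 44.3% and 40.4% in WT and 38.4% and 36.6% in CBE-KO. For both pairs the CBE-KO shares were below the WT shares, a comparison that needs no scaling.

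Rpl3l, below the count limit, took 0.185% and 0.0934% of its pair with Rpl3 in WT and 0.338% and 0.344% in CBE-KO, from 15 to 64 counts, while Rpl3 had a log2 fold change of -0.07 (edgeR adjusted p = 0.240, but 0.00237 without WT replicate 2). Rpl39l and Rpl10l are copies best known from male germ cells. Rpl39l took 18.1% and 19.9% of its pair with Rpl39 in WT and 17.4% and 17.7% in CBE-KO. The copy fell by 0.22 on the log2 scale (edgeR adjusted p = 0.00170), whereas Rpl39 had -0.08 (edgeR adjusted p = 0.226) and 0.021 on library totals. Rpl10l took 27.8% and 25.8% of its pair with Rpl10 in WT and 27.3% and 27.6% in CBE-KO, so the groups overlapped. Their log2 fold changes were -0.19 for Rpl10l (edgeR adjusted p = 0.00708) and -0.23 for Rpl10 (edgeR adjusted p = 0.000470). On library totals neither copy was called (edgeR adjusted p = 0.0711 for Rpl39l and 0.180 for Rpl10l), nor was Rpl10l without CBE-KO replicate 1 (0.118). How reads that match several copies were counted is not given in the sources used here, so these shares may mix reads of both.

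The members lie on 19 chromosomes, 4 of them on the X. Since Y-linked counts separated the groups, the X-linked members were read separately. All 4, Rpl10, Rpl36a, Rpl39 and Rps4x, had negative log2 fold changes (-0.23, -0.16, -0.08 and -0.13), and all but Rpl39 passed. Their median was -0.15, as over all members. On library totals 1 of the 4, Rpl10, was called, with a median of -0.04. Rpl36a also lost its call without CBE-KO replicate 1 (adjusted p = 0.152), and Rpl39 was called without WT replicate 2 (-0.17).

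Processed pseudogenes are a known feature of this family, and reads can be split between a gene and its copies. The tables held 291 identifiers named as pseudogenes of ribosomal protein genes. Of all counts they took 0.421% and 0.420% in WT and 0.410% and 0.447% in CBE-KO, with overlapping groups. For each 100 counts in members there were 4.74 and 5.04 in these identifiers in WT and 4.98 and 5.27 in CBE-KO. Of the 86 that were tested, 12 were lower and 5 higher (7 and 6 on library totals, where their median changed sign from -0.06 to 0.04).

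For Rpl17 the gene and its pseudogene identifiers went opposite ways in a library. CBE-KO replicate 2 had the lowest count for the gene (4184, against 8404 to 10678 in the other libraries) and the highest for its 10 pseudogene identifiers (8288, against 4399 to 5535). Their sum was 968 and 1094 CPM in WT and 843 and 856 CPM in CBE-KO, a log2 difference of -0.28 beside -0.76 for the gene alone. In Rps27a the sum with 2 pseudogene identifiers changed by -1.10, since these took only 2.13% of its counts. Rpl31 and its 23 identifiers were both higher in CBE-KO, and their sum differed by 0.45. For Rpl21 with its 15 identifiers the sum differed by -0.47, beside -0.54 for the gene alone. For Rpl23a with its 14 identifiers it differed by 0.29, beside 0.40. The 3 identifiers of Rpl29 took 2.45% of its sum, which differed by -0.88. Whether reads that match several copies were left out of these counts was not tested. Rpl34 had 338 to 446 counts, while its 2 pseudogene identifiers had 8506 to 9767. The gene alone had a log2 fold change of -0.27 (edgeR adjusted p = 0.0614, but 0.000683 without WT replicate 1), and the sum differed by -0.25.

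**Figure D4:**
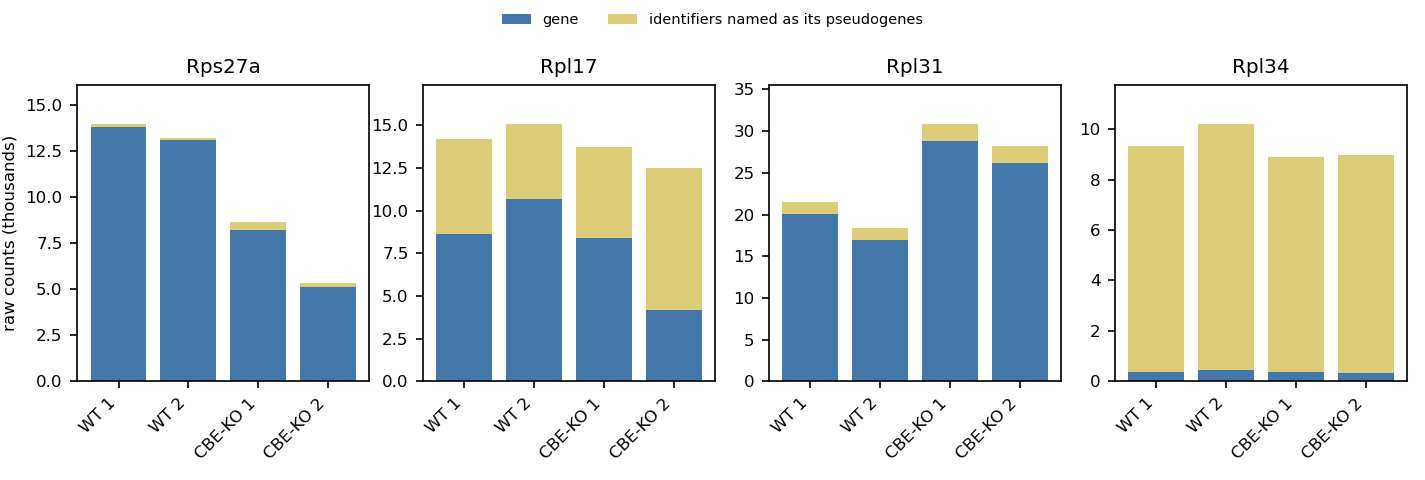
Raw counts (vertical axis, in units of kilocounts) per library for Rps27a, Rpl17, Rpl31 and Rpl34 (blue) and for identifiers named as their pseudogenes (yellow), stacked, with a separate axis from 0 for each gene. CBE-KO replicate 2 has the smallest blue and the largest yellow part for Rpl17, and nearly all counts of the Rpl34 family are in pseudogene identifiers.

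Ribosomal proteins whose genes have other names were read as a separate list. Of 9 symbols, 8 were tested, 6 were lower and 0 higher, with a median log2 fold change of -0.30 (4 lower and 1 higher on library totals). Beside these, 21.5% of all genes were lower and 21.6% higher (14.7% and 29.8% on library totals). Fau, which encodes a ubiquitin-like protein fused to a ribosomal protein, had -0.20 and Rps3a1 -0.21. Neither was called on library totals, Fau not without CBE-KO replicate 1, and Rps3a1 not in DESeq2 (adjusted p = 0.210) or without WT replicate 1 or CBE-KO replicate 2. Rack1, a scaffold protein of the small subunit, had 1978 and 1787 CPM in WT and 1568 and 1638 CPM in CBE-KO (-0.23). Rpl7l1 and Rps27rt fell by 0.39 and 0.36 on the log2 scale. The 2 that were not past the threshold depended on single libraries. Rpl22l1, the copy of Rpl22, had 62.4 and 43.1 CPM in WT and 51.9 and 70.5 CPM in CBE-KO, and its value ranged from -0.039 to 0.50 when a library was left out. Rpl36al had 14 to 41 counts and ranged from -1.61 to 0.019.

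Nearly all of the listed genes that build ribosomes were lower in CBE-KO. The list was chosen with earlier results of these data known. Of 63 assembly and pre-rRNA processing genes, 60 were lower and 2 higher, with a median log2 fold change of -0.50, beside 21.5% and 21.6% of all genes. On library totals 58 were lower and 3 higher. Ddx27, an RNA helicase, had 303 and 299 CPM in WT and 154 and 151 CPM in CBE-KO (edgeR log2 fold change -0.98 ± 0.05 SE, adjusted p = 4.77e-11). Nolc1, a nucleolar chaperone of small RNA-protein particles, had -0.80, Nle1, a factor of large subunit maturation, -0.79, and Rrp9, a protein of the U3 particle, -0.74. Replicates lay close together for each of the 4, and the groups did not overlap.

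RNA polymerase I makes the ribosomal RNA precursor. Of its 17 tested genes 12 were lower and 1 higher, with a median of -0.29 (10 lower and 1 higher on library totals). All-gene shares were 21.5% lower and 21.6% higher (14.7% and 29.8% on library totals). Polr1d went from 156 CPM in both WT libraries to 83.3 and 86.9 CPM in CBE-KO (edgeR log2 fold change -0.87 ± 0.05 SE, adjusted p = 5.49e-10). Cd3eap and Polr1b, further subunits, had -0.61 and -0.58, and Tcof1, the nucleolar protein treacle, had -0.56.

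Translation factors and other genes with TOP messages had 12 lower and 2 higher of 17, with a median of -0.22 (9 lower and 3 higher on library totals). For each list in this paragraph, the all-gene shares were 21.5% lower and 21.6% higher (14.7% and 29.8% on library totals). Eef1d, an exchange factor of elongation factor 1, had -0.52, Eif2s3x -0.46, and the initiation factor 3 subunits Eif3k and Eif3l -0.46 and -0.44. Eif2s3y, the Y-linked partner of Eif2s3x, was higher in CBE-KO by 7.18 to 7.98 on the log2 scale when a library was left out. Whether reads were split between these 2 genes was not tested. Of 14 tested genes listed as chaperones of ribosomal proteins or sensors of their excess, 9 were lower and 2 higher (7 and 3 on library totals). Trp53 (p53) had -0.66, Grwd1 -0.66 and Zfp622 -0.71. Sytl4, also on this list, is not known for such a role. It had 1.62 from 4 to 23 counts a library, and 1.08 to 1.98 when a library was left out. DESeq2 did not call Sytl4 (adjusted p = 0.172). The list of mTORC1 and TOP message control genes was mixed, with 6 lower and 2 higher of 15 (4 and 4 on library totals). Its median of -0.022 became 0.08 on library totals. Cnbp and Larp1, which bind TOP messages, had -0.34 and -0.29, and Eif4ebp1 and Rptor had -0.30 and -0.28.

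In the Myc family 4 genes were lower and 3 higher of 10 (3 and 4 on library totals). Over all genes 21.5% were lower and 21.6% higher (14.7% and 29.8% on library totals). Myc had 70.1 and 69.8 CPM in WT and 25 and 28.1 CPM in CBE-KO (edgeR log2 fold change -1.40 ± 0.08 SE, adjusted p = 2.18e-10). Mycn had 25.6 and 31.3 CPM in WT and 15.3 and 13.7 CPM in CBE-KO (edgeR log2 fold change -0.97 ± 0.12 SE, adjusted p = 3.53e-06). Mycl moved the other way, from 13.3 and 13.9 CPM to 23.8 and 20 CPM (edgeR log2 fold change 0.69 ± 0.12 SE, adjusted p = 0.000168). Among the partners and antagonists, Mnt and Max fell by 0.39 and 0.16 on the log2 scale, Max not with upper-quartile scaling, library totals or DESeq2 or without CBE-KO replicate 1. Mxd4 and Mxi1 rose by 0.49 and 0.30, neither past the threshold in DESeq2 (adjusted p = 0.0829 and 0.0616) or without CBE-KO replicate 1, and Mxd4 not without WT replicate 1. Mxd1 (0.16), Mxd3 (0.21) and Mga (0.06) were not past the threshold, Mga only on library totals (0.16).

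Mitochondrial ribosomal protein genes, a list added after values were seen, gave a comparison with the other ribosome of the cell. Of 79 tested genes 56 were lower and 2 higher, with a median log2 fold change of -0.28. On library totals 37 were lower and 4 higher. The all-gene shares were 21.5% lower and 21.6% higher with TMM, and 14.7% and 29.8% on library totals. The median for the cytoplasmic members was -0.15. No test was made between these lists.

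**Figure D5:**
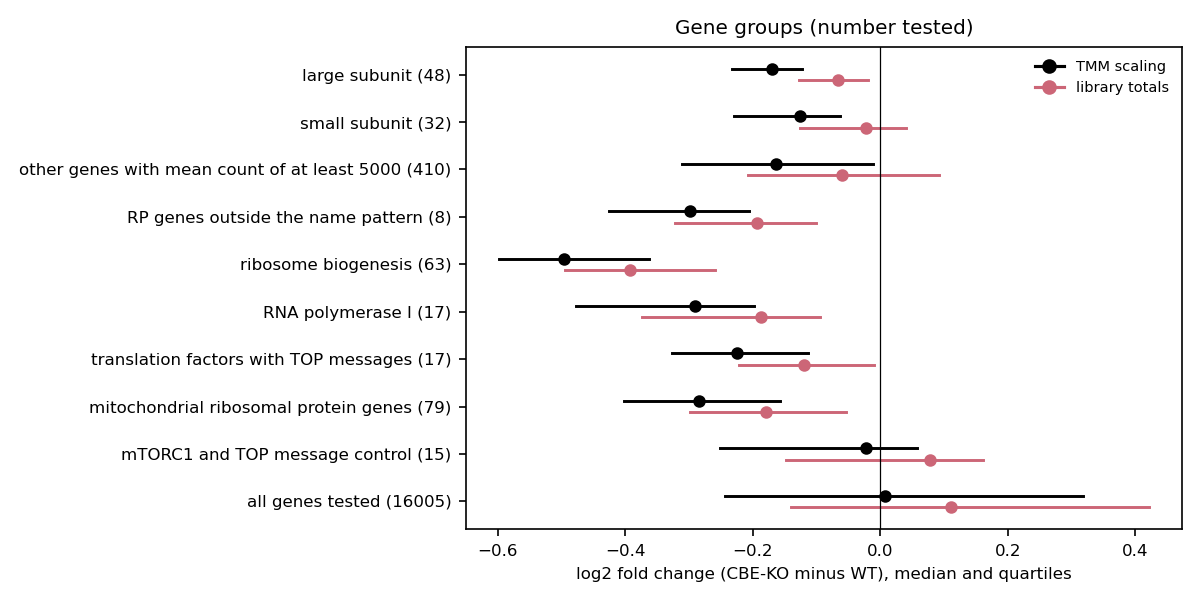
Median (point) and quartiles (line) of the log2 fold change (CBE-KO minus WT) for groups of genes, with TMM scaling in black and library totals in red. Each group shifts by about the same amount between scalings, the assembly genes lie lowest (-0.50 with TMM), and the medians of the mTORC1 list and of all genes lie on or above 0 with library totals.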

How the data were processed

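RNA-seq counts of 4 libraries were used. The series also has 6 Capture-C samples, not analysed here. The authors deposited raw counts per Ensembl mouse gene, which the whole numbers and unequal totals of the files show. The submitters' processing notes name HISAT2 2.1.0, HTSeq 0.9.1, DESeq2 1.18.1 and Bowtie2 2.3.1 and the mm10 build, with no role or setting. Annotation release, strand use and treatment of reads that match several genes are not given in the sources used here. Symbols were found for 52403 of 52636 identifiers.

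Genes kept by filterByExpr (16005) were tested with edgeR 4.0.16 in R 4.3.3 (glmQLFit, glmQLFTest, TMM, two-sided, no covariate), with Benjamini-Hochberg adjustment over all of them. CPM are TMM-scaled unless stated. Standard errors were derived from the log2 fold change and the F statistic. Groups and replicate numbers came from sample titles. The fit was first tested on simulated counts, with the same dispersion for all genes. At a log2 change of 0.25 edgeR recovered 12 of 200 changed genes (6%), and at 1 it recovered 162 (81%). The changed genes were drawn from all tested genes, and recovery among the members was not read separately. Alternatives were DESeq2 1.42.0, 5 other scalings, 2 other filters, a replicate block, other member limits, an adjusted p under 0.01 and leaving out each library.

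The members and lists were chosen with earlier results of these data known. Named genes were the 8 largest changes in each direction among called members, fixed sets of stalk, copy, 5S-particle and X-linked members, Rps6, Rps19, the 4 members with the most and the fewest reads, and the 4 largest changes past the threshold per list, with the list of other names and the Myc family. The values of 1 gene of the list of other names are not reported here.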

Additional observations from a re-analysis of the deposited data

How the results depend on the processing

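Library totals alone left 30 members past the threshold, 7 higher and 23 lower, with medians of -0.066 for large and -0.022 for small subunit genes. Library totals without the members gave 29, 6 and 23, with medians of -0.071 and -0.027. Over the fits without a library, calls ranged from 34 to 70, of which 2 to 7 higher and 31 to 68 lower, with medians from -0.23 to -0.13 (large) and -0.19 to -0.06 (small). Their difference ranged from -0.07 to -0.04, the share difference (main -0.26 percentage points) from -0.53 to 0.0025, and all genes called from 5492 to 6420. A lone library in a group is there assumed to vary like the others. The all-gene count of 6895 was 4577 in DESeq2. The replicate block gave 53 members, 50 of them also called without it, and 7028 genes. Deviations from the group means in same-numbered libraries had a correlation of 0.035 over all tested genes. With 2 libraries a group, this value cannot show whether same-numbered libraries shared a batch. Upper-quartile scaling took the small subunit genes called lower from 17 to 9.

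Signs changed on library totals for Rplp2 (0.039), Rpsa (0.080, and 0.011 with upper-quartile scaling), Rpl39 (0.021), Rps6 (0.00083) and Rps19 (0.019), none of them called. Ranges without a library that crossed 0 were -0.14 to 0.0070 (Rplp2), -0.17 to 0.0037 (Rpl39), -0.041 to 0.095 (Rps27), -0.039 to 0.50 (Rpl22l1), -1.61 to 0.019 (Rpl36al) and -0.0053 to 0.12 (Mga). The cause was not tested. With 2 libraries a group, falls as small as the median of -0.15 are not firm gene by gene.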
